A study of Mus musculus with 100 samples.

Results

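Distal CpG island regions were those ChIP-seq regions whose detailed genomic annotation named a CpG island and whose listed distance to the nearest transcription start site (TSS) was over 2000 bp in either direction. They were taken from 15 tables of tags counted by region in macrophages grown from mouse bone marrow (BMDMs) and in bone marrow cell cultures. The rule used annotation and position alone, and none of the tag counts. It found 3564 entries among the 610301 regions of all tables, against 471985 other distal regions, which lay over 2000 bp from a TSS and carried no CpG island annotation. A table held 80 (ERK1 in the cultures with RANKL) to 417 (H3K27ac in WT and NKO) such regions, or 0.441% to 3.23% of its distal regions.

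The 70 libraries came from C57BL/6 mice, with 2 libraries in each group and 25 comparisons between groups. Wild-type (WT) BMDMs received vehicle (Veh) or Kdo2-lipid A (KLA), a selective agonist of the endotoxin receptor TLR4, for 6 h, and H3K27ac or 1 of the factors NCoR, HDAC3, PGC1β, p300, ERK1, p65, Fosl2 and PU.1 was measured by ChIP. The p300 libraries titled Veh are described as KLA at 0 h, so they are samples before treatment. Further groups were WT BMDMs with DMSO and Veh, DMSO and KLA, or KLA with RGFP966, an inhibitor of HDAC3 catalysis (H3K27ac), and with DMSO and Veh, DMSO and KLA, or KLA with an ERK inhibitor, ERKi (PGC1β). For NCoR, KLA with ERKi was set against KLA and Veh. By the paper's methods, both inhibitors were added at the start of serum starvation, before KLA. No group had an inhibitor with Veh, so its effect before KLA and its effect on the KLA response cannot be told apart. Knockouts were NKO (NCoR flox/flox with LysMCre) against NCoR flox/flox mice, named WT there, and Pgc1b flox/flox with LysMCre (Cre) against Pgc1b flox/flox (flox), each with Veh and with KLA. LysMCre deletes in myeloid cells, so other cells of the mouse keep the gene. In bone marrow cell cultures given RANKL, the cytokine that drives osteoclast differentiation, p300 and ERK1 were compared between day 4 and day 0. Of the ERK1 libraries, day 4 replicate 2 carries another library date than the other 3 and another replicate number in its file header. The headers of the other 3 also name NCoR WT, which that of day 4 replicate 2 does not.

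CpG islands are stretches of GC-rich DNA in which the CpG dinucleotide has kept close to the frequency that base composition predicts, while it is depleted from most of the mammalian genome. Most of them lie at promoters, usually remain unmethylated and are bound by proteins with a CXXC domain and by transcription factors of the SP/KLF and ETS families. Islands away from known promoters can act as promoters of unannotated transcripts or as enhancers. In macrophages, most signal-dependent enhancers are instead CpG-poor and are opened by PU.1 together with AP-1, C/EBP and NF-κB factors. NCoR is a corepressor scaffold that carries the histone deacetylase HDAC3, PGC1β is a coactivator, p300 is an acetyltransferase, and p65 is the transactivating subunit of NF-κB.

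The middle 200 bp of 7 distal CpG island regions and of 2 other distal regions are printed first, to show their base composition. They were read from mm10 (GRCm38.p6) and are given on the plus strand, 5′ to 3′, with each CpG dinucleotide in capitals. Kdm6b, Ap3m2 and Tmem44 were centred on p65 peaks, Klf9, Cep135 and Arid1a on H3K27ac windows, and Tgfb1 on an ERK1 peak. Each region carries the name of the gene with the nearest TSS. The last 2, near Mir3966 (p65) and Cd300a (H3K27ac), lie outside CpG islands and were chosen for contrast after their values were seen.
Kdm6b (chr11:69410766-69410965): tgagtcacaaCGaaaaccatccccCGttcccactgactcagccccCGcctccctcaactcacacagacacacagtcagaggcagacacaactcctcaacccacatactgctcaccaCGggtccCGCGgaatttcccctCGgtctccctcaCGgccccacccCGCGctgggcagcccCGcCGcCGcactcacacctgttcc
Ap3m2 (chr8:22807949-22808148): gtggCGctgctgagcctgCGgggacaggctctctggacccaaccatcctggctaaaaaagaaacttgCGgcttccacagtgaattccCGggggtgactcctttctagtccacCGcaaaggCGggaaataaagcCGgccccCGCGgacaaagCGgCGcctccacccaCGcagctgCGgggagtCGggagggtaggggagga
Tmem44 (chr16:30510581-30510780): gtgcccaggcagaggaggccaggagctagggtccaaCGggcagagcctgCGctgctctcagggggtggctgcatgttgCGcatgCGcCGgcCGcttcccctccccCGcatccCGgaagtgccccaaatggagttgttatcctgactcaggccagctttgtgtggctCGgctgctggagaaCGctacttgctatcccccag
Klf9 (chr19:23134920-23135119): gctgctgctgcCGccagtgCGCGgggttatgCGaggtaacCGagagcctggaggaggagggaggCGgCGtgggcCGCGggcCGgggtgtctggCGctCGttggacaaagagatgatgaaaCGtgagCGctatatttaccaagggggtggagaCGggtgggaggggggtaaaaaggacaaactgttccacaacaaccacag
Cep135 (chr5:76588955-76589154): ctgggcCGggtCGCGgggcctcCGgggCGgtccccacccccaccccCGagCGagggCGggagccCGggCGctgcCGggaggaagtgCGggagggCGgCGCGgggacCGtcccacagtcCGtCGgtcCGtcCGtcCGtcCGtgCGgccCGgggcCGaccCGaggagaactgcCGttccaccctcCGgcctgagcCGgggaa
Arid1a (chr4:133813262-133813461): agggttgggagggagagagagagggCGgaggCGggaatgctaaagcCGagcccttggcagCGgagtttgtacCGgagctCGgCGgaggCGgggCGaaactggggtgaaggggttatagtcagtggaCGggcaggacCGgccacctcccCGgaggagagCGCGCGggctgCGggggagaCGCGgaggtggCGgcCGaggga
Tgfb1 (chr7:25689198-25689397): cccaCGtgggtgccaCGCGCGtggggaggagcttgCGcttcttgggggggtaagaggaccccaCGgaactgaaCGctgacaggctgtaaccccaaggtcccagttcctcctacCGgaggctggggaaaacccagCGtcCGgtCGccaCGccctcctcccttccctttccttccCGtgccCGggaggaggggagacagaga
Mir3966 (chr10:97442531-97442730): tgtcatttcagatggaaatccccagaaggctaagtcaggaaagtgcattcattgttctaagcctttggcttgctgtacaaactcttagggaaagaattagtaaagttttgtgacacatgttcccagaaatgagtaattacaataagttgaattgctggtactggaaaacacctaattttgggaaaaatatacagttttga
Cd300a (chr11:114903395-114903594): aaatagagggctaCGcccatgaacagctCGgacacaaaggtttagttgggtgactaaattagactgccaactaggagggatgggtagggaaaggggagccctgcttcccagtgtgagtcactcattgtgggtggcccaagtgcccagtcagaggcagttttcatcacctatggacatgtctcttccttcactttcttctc

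The Cep135 window held 29 CpG dinucleotides at 80% GC. Those of Kdm6b (13), Ap3m2 (14), Klf9 (15), Tgfb1 (14), Arid1a (20) and Tmem44 (10) were also rich in CpG. The Mir3966 window held 0 at 36% GC and that of Cd300a held 2 at 51%.

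The annotation matched the base composition. In the central 200 bp, the median GC content of distal CpG island regions was 66% to 69% in the 15 tables, against 45% to 50.5% in other distal regions. The median CpG count was 16.5 to 19 against 2 to 3, and the ratio of observed to expected CpG was 0.812 to 0.875 against 0.175 to 0.208. Between 90.2% and 93.7% of the distal CpG island regions had a GC content above 50% and a ratio above 0.6, which 0.850% to 3.42% of other distal regions had.

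For part of these regions, the name "distal" held against the annotation used by the authors but not against others. Between 39.7% and 53.3% of the distal CpG island regions of a table lay within 1000 bp of a transcript start in GENCODE, against 6.60% to 9.87% of other distal regions. Starts of curated RefSeq transcripts lay that near to 9.52% to 18.1% of them, and starts of predicted RefSeq transcripts to 29.6% to 38.3%, against 0.360% to 0.929% and 3.57% to 5.32%. The Klf9 window, for instance, lay at -6207 bp from the TSS of Klf9, with upstream positions negative, and 119 bp from the start of the long noncoding RNA 2410080I02Rik. They were nearer to genes than other distal regions (median distance 9357 to 16690 bp against 20902 to 26207 bp), yet 71.3% to 75.9% were intergenic, against 43.2% to 47.6%. The rest of the distal CpG island regions were all in introns. The CpG island label fell on no region with another annotation, so islands there, if any, are among the other distal regions.

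Short motifs were searched on both strands of the central 200 bp, with N standing for any base. The SP/KLF motif GGGCGGG was in 35.6% to 51.4% of distal CpG island regions of a table, against 1.95% to 4.73% of other distal regions. The ETS motif CCGGAAG (8.19% to 15% against 1.37% to 2.33%) and the CRE motif TGACGTC (4.61% to 11.2% against 0.669% to 1.16%) were also more frequent. The AP-1 motif TGANTCA was rarer in them (3.86% to 15.5% against 15.7% to 42.7%), as was, over these ranges, the PU.1 motif GAGGAAG (9.52% to 23.4% against 21% to 37.9%). The NF-κB motif GGGANTT was about as frequent in each class (7.78% to 15.2% against 9.11% to 15.9%). The E-box CACGTG was in 4.90% to 14.3% against 3.09% to 4.64%, and the CTCF core AGGGGGC in 7.98% to 15.5% against 1.75% to 6.27%. The SP/KLF, CRE, ETS and E-box motifs and the CTCF core each hold a CpG or a run of G and C. Their frequency and the base composition are therefore not separate measurements, and a match is not evidence of binding.

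**Figure D1:**
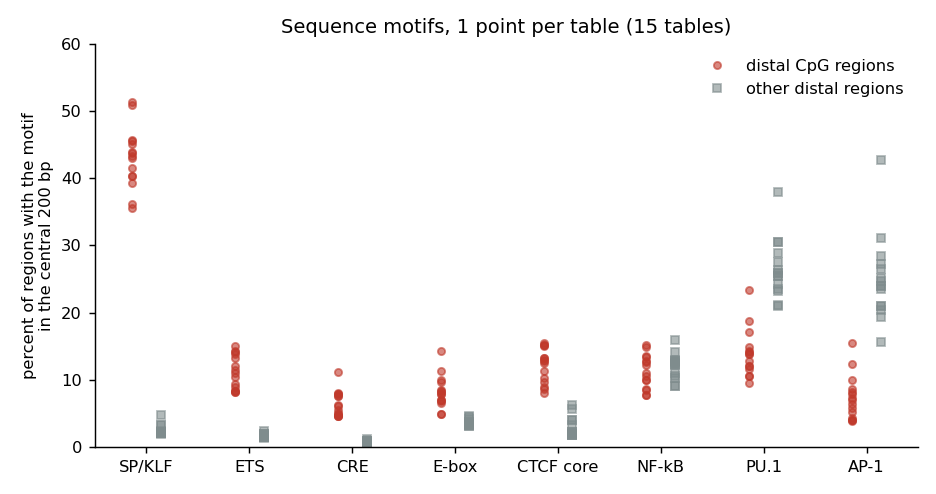
Share of regions (percent) whose central 200 bp held each of 8 motifs, in distal CpG island regions and in other distal regions, with 1 point for each of the 15 tables. The SP/KLF, ETS and CRE motifs lie higher in the CpG island class in every table, and the AP-1 motif lies lower.

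Joined over all tables wherever they lay within 500 bp, the 3564 entries made 642 loci. Of these, 135 were in a single table, 115 were in at least 10, and 9 were in all 15. The 9 carried the names Arid1a (a subunit of the SWI/SNF remodeller, 59.7 kb from its TSS), 1810026B05Rik, Actb, Tgfb1, Chd2, Tmpo, Mir7021, Krt78 and Mir15a. A peak of at least 1 factor was at 531 loci. Among these, 170 had 1 factor, 172 had 5 or more and 33 had all 8. Joining at 100 bp gave 779 loci with 6 in all tables, and at 1000 bp 620 with 9. PGC1β had peaks at 362 loci, p300 at 260, NCoR at 250, p65 at 228, HDAC3 at 216, ERK1 at 190, PU.1 at 183 and Fosl2 at 112. H3K27ac regions covered 457. PGC1β, p300, NCoR and ERK1 had more than 1 table each, and the other factors a single one, so these counts do not rank the factors. The tables of Veh and KLA without DMSO or ERKi held 247 such regions for PGC1β, 255 for p300, 252 for NCoR and 246 for p65. They held 235 for HDAC3, 158 for ERK1, 188 for PU.1 and 116 for Fosl2. A GENCODE start lay within 1000 bp of 316 of the 642 loci.

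How often factors shared these loci, compared with other distal sites, depended on the factor. Of the NCoR peaks in distal CpG islands, 83.3% had an HDAC3 peak within 500 bp and 74.6% a p300 peak, against 80.2% and 83.5% of other distal NCoR peaks. A Fosl2 peak, an AP-1 subunit, lay beside 34.0% to 42.1% of the distal CpG island peaks of another factor, against 44.0% to 71.0% elsewhere. For p300 these shares were 59.5% to 79.1% against 64.5% to 91.1%, and for ERK1 44.1% to 57.8% against 35.2% to 58.3%. The p300 peaks in distal CpG islands had an HDAC3 peak (74.9% against 60.0%), a PGC1β peak (59.2% against 44.7%) or an NCoR peak (75.3% against 64.9%) more often than other distal p300 peaks. The ERK1 peaks there had NCoR (72.2% against 85.6%), HDAC3 (71.5% against 84.1%) and p65 (67.7% against 81.1%) less often. Regions measured for H3K27ac were more often at hand. In the tables of the RGFP966 and Pgc1b experiments they lay within 500 bp of 63.6% to 77.5% of the distal CpG island peaks of a factor, against 25.6% to 52.3%. For the WT and NKO table these shares were 68.8% to 88.6% against 20.0% to 46.8%. H3K27ac was counted over open chromatin, so these shares describe accessible regions and carry no level of the mark.

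The libraries totalled 4.30 to 21.51 M tags, and values below are tags per 10 M of that total. H3K27ac at the promoters of macrophage marker genes was present for 7 of 8 genes in the Pgc1b and RGFP966 tables (no region was listed at Mrc1) and for 4 of 8 in the WT and NKO table. No other cell type's marker promoters had a region, except Pecam1, at 1.59 to 22.9 tags per 10 M in the WT and NKO table. The share of tags inside regions differed between groups for several factors (p65 12.7% and 14.4% with Veh and 34.1% and 37.1% with KLA), and its part in the differences below was not tested. In bulk chromatin, fewer cells with a bound site and less binding in each cell cannot be told apart.

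With KLA, all 8 factors fell in rank at distal CpG islands relative to other distal sites. The measure that does not depend on how libraries are scaled is the rank of each region among all distal regions of its library, given as the median percentile of the distal CpG island regions. For p65 it was 79.0 and 78.3 in the libraries with Veh and 39.2 and 44.4 with KLA. For p300 it was 71.5 and 73.0 against 54.7 and 49.3, and for PGC1β 56.9 and 58.8 against 35.8 and 39.5. Among distal regions merged over Veh and KLA, the class thus lay in the upper part with Veh and below or near the middle after KLA. Of the other distal regions ranked with it, 64.1% for p65 and 46.2% for p300 were called higher with KLA. Sites that became peaks only with KLA also count in the Veh ranks, so these are not ranks among sites bound at rest. The part of this selection in the fall was not tested. The top 10% of distal regions held 26.8% and 28.0% of the class for p65 with Veh, and 9.80% and 13.7% for p300, the latter near the 10% of any distal region.

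The other factors moved in the same direction, each by fewer ranks than p65. The median percentile was 60.4 and 57.2 with Veh and 50.2 and 49.4 with KLA for NCoR. HDAC3 gave 54.5 and 57.8 against 48.7 and 49.0. ERK1 gave 56.8 and 53.8 against 38.1 and 39.4, and Fosl2 56.5 and 55.0 against 33.3 and 32.4. PU.1, whose percentile was already below the middle with Veh, gave 47.0 and 44.1 against 37.9 and 38.5. For none of the 8 factors did the Veh and KLA libraries overlap.

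**Figure D2:**
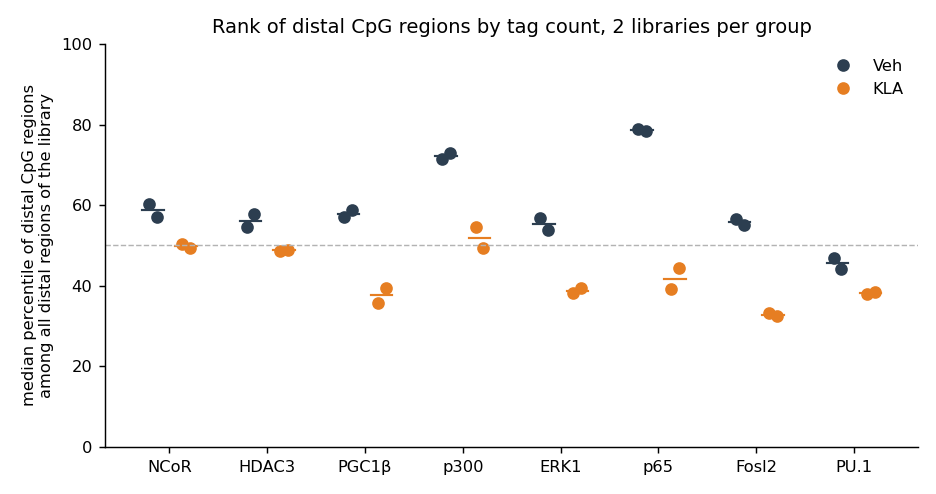
Median percentile of distal CpG island regions among all distal regions of the same library (0 to 100), with 1 point for each library, grouped by table and treatment. KLA libraries lie below Veh libraries for each of the 8 factors.

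The p65 levels show what changed. The median over distal CpG island regions was 33.3 and 37.3 tags per 10 M with Veh and 33.7 and 41.0 with KLA. Over other distal regions it was 14 and 15.8 with Veh and 42.7 and 46.5 with KLA. The class outside CpG islands gained p65, and the medians in distal CpG islands overlapped between treatments. For p300 the medians in distal CpG islands were 38.2 and 37.5 with Veh and 36.8 and 31.9 with KLA, and those elsewhere 18.8 and 17.7 against 32.7 and 32.4.

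Region by region, a change was called at an adjusted p under 0.05 and more than 2-fold, by edgeR's quasi-likelihood test on counts scaled to library totals, over all regions of the table. All distal CpG island regions of the factor tables passed the filter on low counts. For p65, 42 rose and 36 fell of 246, while 57% of all regions rose and 5.43% fell. The median log2 fold change was -0.16, against 1.74 in other distal regions. The difference between these medians was -1.89 to -1.77 over the pairs of 1 Veh and 1 KLA library. With libraries scaled by the trimmed mean of M-values (TMM), which sets the typical region to no change, 9 rose and 154 fell (all regions 27.6% and 21.3%). With library totals, CpG islands within 2000 bp of a TSS had a p65 median of -0.30 (15.8% rose and 21.9% fell). The other regions within 2000 bp had a median of 0.18 (29.7% and 12.2%).

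For p300, 31 rose and 60 fell of 255, against 42.1% and 12.9% of all regions. The median was -0.32, against 0.88 elsewhere, with a difference of -1.31 to -1.01 over library pairs. Under TMM, 21 rose and 112 fell (all regions 32.7% and 23.9%). The share that fell was above that of all regions under either scaling. With library totals, CpG islands within 2000 bp of a TSS had a median of -0.34 (11.8% rose and 19.3% fell). The other regions within 2000 bp had a median of -0.25 (21.2% and 17.4%). The fall was thus not particular to distal CpG islands.

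For NCoR, 24 rose and 44 fell of 252 (all regions 23.4% and 16.7%), with a median of -0.17 against 0.17. For HDAC3, 35 rose and 16 fell of 235 (27.5% and 11.3%), with medians of 0.05 and 0.35, and TMM gave 26 and 25 (24.3% and 16.3%). The pairwise differences were -0.48 to -0.28 for NCoR and -0.36 to -0.24 for HDAC3. The HDAC3 calls in distal CpG islands thus went up less often than those of all regions.

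For PGC1β, 6 rose and 23 fell of 247 (all regions 16.4% and 6.35%), with medians of -0.34 and 0.10, and TMM gave 4 and 36 (15.8% and 9.13%). For ERK1, 4 rose and 3 fell of 158 (10.3% and 2.53%), with medians of -0.13 and 0.37. For Fosl2, 3 rose and 3 fell of 116 (11.4% and 4.19%), with medians of -0.68 and -0.04. TMM gave 4 and 13 for Fosl2 (19% and 9.68%). Few of the ERK1 and Fosl2 changes in distal CpG islands passed the test, although their ranks fell in each library with KLA.

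PU.1 fell in each class. In distal CpG islands 2 rose and 49 fell of 188 (all regions 4.53% and 21.7%), with medians of -0.53 and -0.44 and a difference of -0.17 to -0.05 over library pairs. TMM gave 4 and 21 (9.13% and 10.6%). The difference between the classes was thus the smallest of the 8 factors. Within 2000 bp of a TSS, the medians of CpG islands and of other regions were -0.05 and -0.09 for NCoR and 0.23 and 0.09 for HDAC3. They were -0.40 and -0.08 for PGC1β, -0.32 and -0.01 for ERK1, -0.98 and -0.57 for Fosl2, and -0.58 and -0.35 for PU.1. Except for the last PU.1 value, each lay below the median of other distal regions.

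TMM moved the median of all regions by over 0.1 in many comparisons, for p65 from 1.46 to 0.24, and with it the direction of some medians. For HDAC3 the median of distal CpG islands was 0.05 with library totals and -0.24 with TMM. A scaling moves all regions of a comparison by about the same amount, so the difference between the classes can differ little between the scalings. That difference is the quantity to read across them, but its stability there is no test of it.

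**Figure D3:**
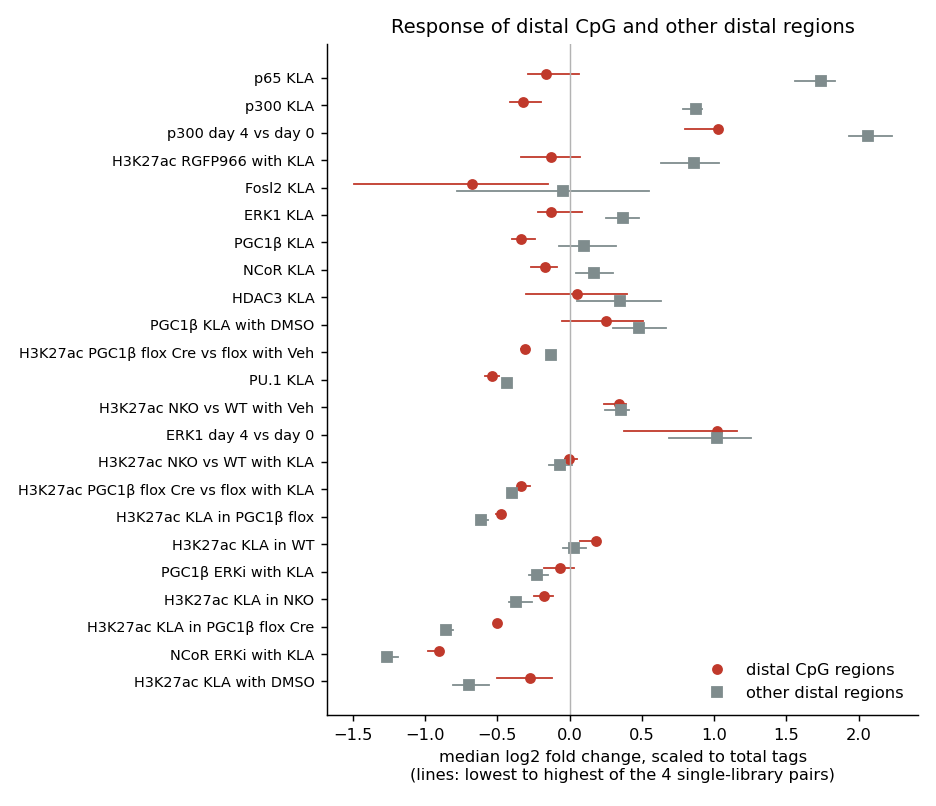
Median log2 fold change of distal CpG island regions and of other distal regions in each comparison, counts scaled to library totals. The medians lie farthest apart for p65 (-0.16 against 1.74), p300 (-0.32 against 0.88), p300 on day 4 (1.02 against 2.06) and RGFP966 (-0.13 against 0.86).

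Within distal CpG islands, the p65 response differed with the NF-κB motif. Of the 27 regions with GGGANTT, 13 rose and 1 fell, with a median of 0.61. Of the 219 without it, 29 rose and 35 fell, with a median of -0.31. Other distal regions with the motif had a median of 2.38 and those without it 1.63, so each CpG island group lay below both. The same split gave -0.04 and -0.38 for p300 (31 and 224 regions), 0.27 and 0.03 for HDAC3 (35 and 200), and 0.18 and -0.22 for NCoR (34 and 218). With an AP-1 motif the p300 median was 0.23 in 18 regions and without it -0.36 in 237, and for Fosl2 -0.20 in 18 and -0.76 in 98. Among other distal regions, those with GGGCGGG also had lower medians (p65 0.91 against 1.75, p300 0.17 against 0.90).

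Factor responses were also split by a nearby GENCODE start. The p65 median was -0.19 in the 113 distal CpG island regions with a start within 1000 bp, of which 16 rose and 17 fell, and -0.13 in the 133 without, of which 26 rose and 19 fell. For p300 the medians were -0.29 and -0.39, for NCoR -0.12 and -0.24, for HDAC3 0.09 and -0.02, for PGC1β -0.28 and -0.44, and for Fosl2 -0.66 and -0.77. At 2000 to 5000, 5000 to 20000, 20000 to 100000 and over 100000 bp from the TSS, the p65 medians were -0.16, -0.08, -0.31 and -0.42, where other distal regions had 1.48, 1.61, 1.80 and 2.13.

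Among the rises in distal CpG islands, that at Mir155hg, the host gene of the inflammatory microRNA miR-155, had the lowest p for p65, p300, NCoR, HDAC3 and Fosl2. The p65 peak, at chr16:84702994-84703230 at -9911 bp from the listed TSS but 55 bp from a GENCODE start of Mir155hg, had 2.63 and 2.80 tags per 10 M with Veh and 340 and 392.01 with KLA. The Veh values were 3 tags in each library, so the rise is given as a ratio of 135 (95% interval 61.8 to 369, counting error only). The p300 peak there went from 1.88 and 1.31 to 190 and 184, a ratio of 116 (49.7 to 360). NCoR went from 4.78 and 4.71 to 198 and 183 (log2 fold change 5.29 ± 0.35 SE, adjusted p = 2.51e-05), and HDAC3 from 7.27 and 6.08 to 169 and 270 (5.02 ± 0.46, adjusted p = 4.86e-25). Fosl2, at 29.6 and 6.29 with Veh, reached 214 and 359 (4.03 ± 0.81, adjusted p = 3.09e-05). Every library with KLA was above every library with Veh in each of these 5 peaks.

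Kdm6b, which encodes an H3K27 demethylase, carried a p65 peak at chr11:69410761-69410969, 2810 bp downstream of its TSS. It had 13.1 and 15.8 tags per 10 M with Veh and 228 and 251 with KLA (4.04 ± 0.28, adjusted p = 1.39e-06). NCoR there rose from 35.8 and 62.4 to 359 and 302 (2.74 ± 0.26, adjusted p = 6.89e-05). The p65 peak at Ap3m2, which encodes an adaptor complex subunit, at chr8:22807930-22808166, lay 227 bp from the start of the long noncoding RNA 1700041G16Rik. It went from 15.8 and 18.6 to 138 and 159 (3.10 ± 0.31, adjusted p = 1.15e-05), and NCoR there from 19.1 and 18.8 to 168 and 178 (3.18 ± 0.28, adjusted p = 5.09e-05). At these loci the corepressor scaffold and p65 rose together.

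Socs3, an inhibitor of cytokine signalling, had a distal CpG island 5785 bp from its TSS (H3K27ac window chr11:117963081-117964081). HDAC3 there went from 42.2 and 28.8 to 127 and 267 tags per 10 M (2.45 ± 0.38, adjusted p = 3.09e-09). ERK1 went from 9.44 and 16.2 to 105 and 76.2 (2.77 ± 0.49, adjusted p = 9.25e-03), and PU.1 from 51.7 and 54.1 to 131 and 157 (1.44 ± 0.14, adjusted p = 2.51e-17). Socs3 was 1 of 2 distal CpG island regions at which PU.1 rose. The p300 peak at A530013C23Rik, 10 bp from a start of the transcript Gm14321, was the strongest of its class at 183 and 154 with Veh and rose to 594 and 629 (1.86 ± 0.14, adjusted p = 1.16e-08). At Gng7, a G protein subunit gene, p300 went from 15 and 28.3 to 203 and 196 (3.20 ± 0.24, adjusted p = 1.72e-08), and HDAC3 at Vcan, which encodes a matrix proteoglycan, from 18.9 and 22.7 to 86.7 and 169 (2.57 ± 0.41, adjusted p = 6.96e-09).

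Other named regions lost binding. The p65 peak at Tmem44, chr16:30510558-30510802, fell from 47.3 and 46.6 to 6.01 and 7.53 tags per 10 M (-2.78 ± 0.48, adjusted p = 4.88e-04). At Id2, an inhibitor of helix-loop-helix transcription factors, p65 fell from 42.9 and 55.0 to 8.68 and 8.21 (-2.52 ± 0.46, adjusted p = 7.11e-04). Fosl2 at Id2 had 24 and 23 tags with Veh and 0 and 0 with KLA, for which no fold is given. At Sh2b3, which encodes an adaptor that restrains cytokine signalling, 3 factors fell.

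There p300 went from 102 and 104 to 35.3 and 25.4 tags per 10 M (-1.75 ± 0.25, adjusted p = 1.59e-05), NCoR from 148 and 224 to 30.8 and 47.0 (-2.24 ± 0.30, adjusted p = 3.23e-04), and PU.1 from 221 and 211 to 66.1 and 75.2 (-1.61 ± 0.12, adjusted p = 4.67e-26). Csrp1, a LIM domain protein gene, lost NCoR (192 and 248 to 44.5 and 51.2, -2.20 ± 0.24, adjusted p = 1.23e-04) and HDAC3 (211 and 178 to 43.4 and 63.2, -1.91 ± 0.38, adjusted p = 4.73e-06). Tgif1, a homeodomain corepressor gene, lost PU.1 (109 and 107 to 20.3 and 17.2, -2.52 ± 0.20, adjusted p = 1.70e-23). HDAC3 at Tgif1 was 45.8 and 73.0 with Veh and 5.86 and 0 with KLA (-3.83 ± 0.59, adjusted p = 1.85e-09). The Veh and KLA libraries were apart at each of these peaks.

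Irf2bp2, a corepressor gene, lost p300 (88.4 and 82.1 to 32.2 and 22.7, -1.63 ± 0.27, adjusted p = 6.92e-05). PGC1β fell at Acot11, an acyl-CoA thioesterase gene, from 42.9 and 27.4 to 8.74 and 6.29 (-2.25 ± 0.50, adjusted p = 2.86e-03), and at Hoxa7, a homeobox gene, from 37.6 and 39 to 0 and 9.72 (-2.69 ± 0.61, adjusted p = 3.74e-03). It rose at Susd2, a membrane protein gene, from 7.64 and 9.30 to 29.5 and 25.7 (1.68 ± 0.49, adjusted p = 1.67e-02). These PGC1β changes rested on low tag numbers, as their errors show.

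**Figure D4:**
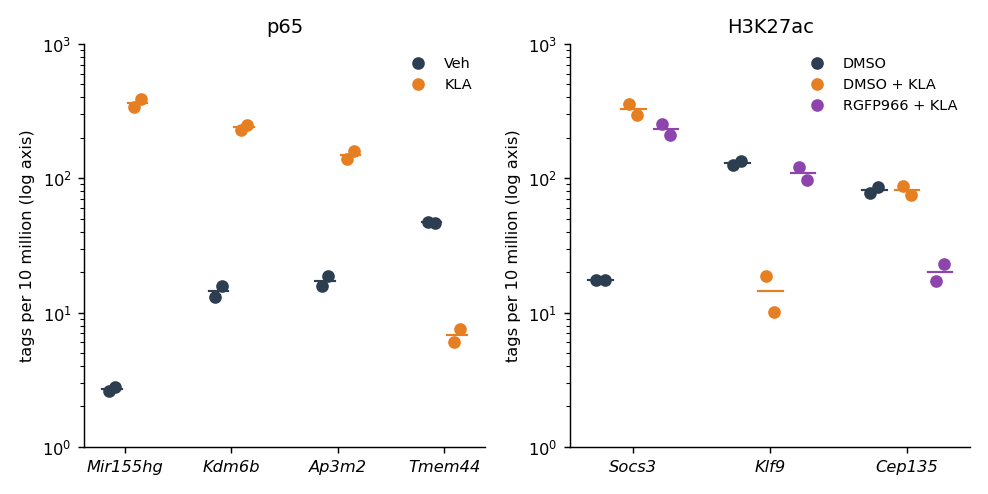
Tags per 10 M (log axis) in each library at named distal CpG island regions, for p65 (Veh and KLA) and for H3K27ac (DMSO, DMSO with KLA, RGFP966 with KLA). The p65 libraries with Veh and KLA do not overlap, and at Cep135 H3K27ac is lower in the RGFP966 libraries than in those with DMSO. At Mir155hg, p65 went from 2.63 and 2.80 to 340 and 392.01, and at Tmem44 it fell from 47.3 and 46.6 to 6.01 and 7.53.

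In the experiment with DMSO as solvent, PGC1β rose with KLA in 17 and fell in 3 of 303 distal CpG island regions (all regions 16.4% and 1.23%). TMM gave 8 and 5 (8.71% and 2.89%). The medians were 0.25 and 0.48, with a difference of -0.35 to -0.16 over library pairs, and the median percentile was 52.3 and 52.4 with Veh and 43.5 and 41.5 with KLA. The direction of the shift in rank was that of the experiment without DMSO. PGC1β rose at Socs3 from 26.8 and 32.1 to 122 and 113 (2.01 ± 0.37, adjusted p = 3.73e-04), at A530013C23Rik from 45.5 and 61.2 to 197 and 156 (1.74 ± 0.32, adjusted p = 3.96e-04), and at Mir155hg from 7.31 and 0 to 25.7 and 53.6 (3.14 ± 0.70, adjusted p = 2.49e-03).

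With ERKi and KLA, no distal CpG island region passed the test for PGC1β (0 of 303 by edgeR, where 0.286% of all regions were called in either direction). At an unadjusted p under 0.05, 10 were higher and 17 lower, against 2147 and 5523 of all 53474 regions, and DESeq2's Wald test called 1. The median was -0.07, against -0.22 elsewhere, and the percentile was 45.3 and 46.9. With ERKi, PGC1β at Mir155hg stood at 116 and 110, and at Socs3 at 152 and 150, above each library with DMSO and KLA, and neither passed the test.

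NCoR with ERKi and KLA was lower than with KLA alone in 97 and higher in 0 of 268 regions (all regions 48.6% and 0.634%), with medians of -0.91 and -1.26. TMM gave 8 higher and 4 lower (3.45% and 3.38%). The ERKi libraries carry another library date than the KLA and Veh libraries, and 15.8% and 15% of their tags lay in regions against 34.2% and 33.3% with KLA, so ERKi and library date cannot be told apart. The median percentile was 61.1 and 63.3 with ERKi and 52.1 and 51.3 with KLA. At Nr4a1, a nuclear receptor gene, NCoR was 183 and 194 with Veh, 230 and 186 with KLA and 43.1 and 42.2 with ERKi and KLA (-2.28 ± 0.23, adjusted p = 5.07e-05). At Elovl5, a fatty acid elongase gene, it was 462 and 498, 296 and 259, and 108 and 92.2 (-1.47 ± 0.18, adjusted p = 1.12e-04). The Elovl5 call was lost under TMM, at -0.30.

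H3K27ac placed distal CpG islands above the middle of the distal regions in most groups. The median percentile was 57.4 and 59.4 with DMSO and Veh, 62.9 and 63.1 with DMSO and KLA, and 47.8 and 49.3 with RGFP966 and KLA. It was 68.8 and 67.5 in flox with Veh, 67.0 and 65.8 in flox with KLA, 64.1 and 64.8 in Cre with Veh and 70.7 and 70.4 in Cre with KLA. In WT it was 62.2 and 60.2 with Veh and 62.5 and 61.3 with KLA, and in NKO 63.4 and 61.9 with Veh and 62.2 and 66.5 with KLA. Unlike the factors, H3K27ac thus gained rank at these regions with KLA with DMSO and in Cre. It lost rank slightly in flox, and in WT and in NKO the Veh and KLA libraries overlapped.

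With library totals, H3K27ac fell with KLA at more distal CpG islands than it rose in the DMSO and Pgc1b experiments, as it did over all regions. After the filter on low counts, 281 of 347 distal CpG island regions were tested in the RGFP966 table, 299 of 347 in the Pgc1b table and 300 of 417 in the WT and NKO table. With DMSO, 13 rose and 57 fell with KLA (all regions 6.73% and 28.1%), with medians of -0.27 and -0.70 elsewhere, a difference of 0.30 to 0.44 over library pairs. TMM gave 33 and 34 (12.5% and 17.2%). In flox, 6 rose and 74 fell (5.22% and 25.6%), with medians of -0.47 and -0.62, and TMM gave 19 and 39 (9.84% and 13.8%). In Cre, 12 rose and 67 fell (4.18% and 32.5%), with medians of -0.50 and -0.85, and TMM gave 28 and 21 (10.8% and 14.3%). By their medians, distal CpG islands lost less H3K27ac than other distal regions in these 3 comparisons, and under TMM the calls with DMSO and in Cre no longer leaned to losses.

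In WT, 17 rose and 9 fell with KLA (all regions 6.49% and 3.72%), with medians of 0.18 and 0.03, and TMM gave 12 and 14 (4.84% and 5.18%). In NKO, 8 rose and 17 fell (2.75% and 7.96%), with medians of -0.17 and -0.37, and TMM gave 9 and 10 (4.29% and 5.32%). The difference between the classes was -0.02 to 0.16 in WT and 0.15 to 0.19 in NKO.

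At Socs3, H3K27ac was 17.4 and 17.4 tags per 10 M with DMSO and Veh and 359 and 294 with DMSO and KLA (4.22 ± 0.27, adjusted p = 2.50e-50). At Vcan it rose from 37.4 and 46.2 to 330 and 253 (2.81 ± 0.24, adjusted p = 3.24e-29). At Zfp395, a zinc finger gene, it fell from 385 and 414 to 51.8 and 53.9 (-2.92 ± 0.23, adjusted p = 2.91e-34). These 3 changes were those of lowest p of the class in their directions. The Zfp395 window fell in the Pgc1b experiment too, from 410 and 377 to 88.8 and 72.6 in flox (-2.29 ± 0.12, adjusted p = 1.99e-68) and from 350 and 330 to 52.7 and 33.2 in Cre (-3.00 ± 0.14, adjusted p = 1.24e-84). The Ap3m2 window rose from 234 and 235 to 665 and 659 in flox (1.5 ± 0.08, adjusted p = 1.16e-65) and from 179 and 171 to 589 and 577 in Cre (1.73 ± 0.09, adjusted p = 6.24e-76).

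RGFP966 separated the classes. Given before KLA and compared with DMSO and KLA, it raised H3K27ac in 32 and lowered it in 24 of 281 distal CpG island regions. The shares were 26.9% and 9.53% of all regions and 40.7% and 0.536% of other distal regions. TMM gave 14 and 65 (all regions 16.1% and 18.9%). The median was -0.13, against 0.86 in other distal regions, and the difference was -1.0 to -0.91 over the library pairs. The median levels in distal CpG islands, over all 347, were 53.2 and 56.7 tags per 10 M with DMSO and Veh, 43.4 and 37.0 with DMSO and KLA, and 44.8 and 42.0 with RGFP966. In other distal regions they were 37.4 and 35.8, 23.3 and 20.2, and 50.02 and 43.4. The other distal regions thus gained with RGFP966, while the medians of distal CpG islands with RGFP966 and without it overlapped.

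CpG islands within 2000 bp of a TSS lay on the far side. Their median levels were 113 and 111 with DMSO and Veh, 111 and 90.04 with DMSO and KLA, and 66.5 and 58.9 with RGFP966, and their median log2 fold change with RGFP966 was -0.72, with 3.9% raised and 24.9% lowered. Distal CpG islands stood between these regions and the other distal regions. By annotation, 90.2% of these near CpG islands were in introns, at a median of 496 bp from the TSS. The other regions within 2000 bp lay nearer, at a median of 93 bp, and 68.2% had a GC content above 50% and a CpG ratio above 0.6. Their median with RGFP966 was -0.56, with 6.68% raised and 23.1% lowered, so the fall was not particular to regions annotated as CpG islands.

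A nearby GENCODE start divided the distal CpG islands for this response. In the 144 with a start within 1000 bp the median was -0.37, with 8 raised and 16 lowered. Over all 174 with a start, those below the count filter included, the median levels were 46.0 and 38.7 with DMSO and KLA and 38.2 and 33.5 with RGFP966. In the 137 without such a start the median was 0.16, with 24 raised and 8 lowered, and over all 173 without one the levels went from 42.7 and 36.2 to 55.9 and 48.1. The latter still lay below other distal regions, whose medians were 0.67 with and 0.88 without a start. In the same classes of distance from the TSS, the medians of distal CpG islands were -0.29, -0.12, -0.23 and 0.08 (55, 101, 115 and 10 regions), against 0.73, 0.83, 0.88 and 0.97 elsewhere.

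**Figure D5:**
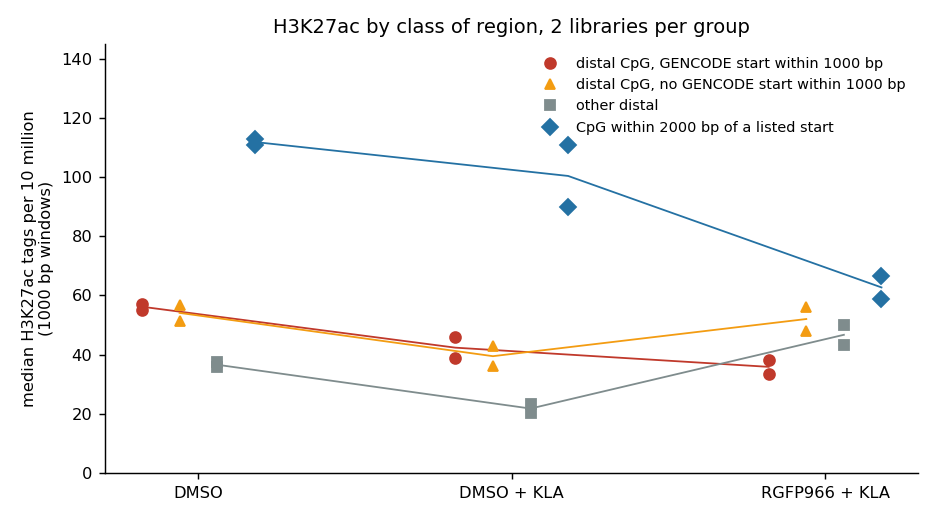
Median H3K27ac (tags per 10 M) in each of the 6 libraries of the RGFP966 experiment, for distal CpG islands with and without a GENCODE start within 1000 bp, other distal regions and CpG islands within 2000 bp of a TSS. With RGFP966, other distal regions rise to 50.02 and 43.4 and CpG islands within 2000 bp of a TSS fall to 66.5 and 58.9.

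The rises of lowest p were in 3 overlapping windows near Klf9, a Krüppel-like transcription factor gene. The first, chr19:23134519-23135519, had 125 and 135 tags per 10 M with DMSO and Veh, 18.8 and 10.1 with DMSO and KLA, and 121 and 97.5 with RGFP966 and KLA. KLA lowered it by 3.12 on the log2 scale (± 0.29, adjusted p = 1.09e-24), and RGFP966 raised it by 2.87 (± 0.29, adjusted p = 9.50e-20). With RGFP966 the levels were near those of Veh. For contrast, the Cd300a window outside CpG islands, chr11:114902994-114903994, went through 220 and 213, 29.8 and 19.4, and 249 and 229.

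The Cep135 window, chr5:76588554-76589554, near a centriole protein gene and 353 bp from a GENCODE start, had 78.1 and 86.3, 87.4 and 74.9, and 17.1 and 23 tags per 10 M in the same order (-2.02 ± 0.28, adjusted p = 4.12e-11). Fbrs had 507 and 452, 586 and 461, and 242 and 181 (-1.31 ± 0.20, adjusted p = 4.22e-10). In these windows both RGFP966 libraries lay below all 4 libraries with DMSO. The window near Arid1a, 1 of the 9 loci of all tables, had 519 and 562, 615 and 473, and 353 and 325. At Socs3 and Vcan, where KLA had raised H3K27ac, the RGFP966 values were 255 and 210, and 234 and 178.

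At the 2000 bp limit, the nearest window inside the rule was at Akap7, 2011 bp from its TSS, with an RGFP966 log2 fold change of -0.15. The nearest CpG island window outside it was at 4932441J04Rik, 1990 bp away, with 0.64.

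Loss of NCoR changed H3K27ac at few distal CpG islands. With Veh, 9 were higher and 0 lower in NKO than in WT, of 300 (all regions 0.973% and 0.027%), and TMM left 1 higher and 0 lower. The median was 0.34, against 0.36 elsewhere. With KLA, 3 were higher and 0 lower (0.789% of all regions in either direction), among them G530011O06Rik and Klf9. At G530011O06Rik, 15.2 kb from its TSS, NKO stood apart with either treatment, at 79.6 and 80.1 with Veh against 14.5 and 22.4 (2.09 ± 0.29, adjusted p = 3.53e-05), and at 69.6 and 82.6 with KLA against 26.4 and 42.7 (1.14 ± 0.27, adjusted p = 2.29e-02). The KLA response itself differed between genotypes at 4 regions, all lower in NKO (0.697% of all regions in either direction, interaction term), and at 0 under TMM by edgeR.

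At Kdm6b, H3K27ac went from 78.8 and 62.1 with Veh to 172 and 179 with KLA in WT (1.32 ± 0.18, adjusted p = 1.70e-07), and from 161 and 132 to 133 and 165 in NKO. NKO was higher with Veh (1.06 ± 0.18, adjusted p = 4.50e-04), and the difference between the responses was -1.31 ± 0.24 (adjusted p = 3.80e-03). At the region 109 kb from Jun, an AP-1 subunit gene, it went from 12.0 and 16.3 to 30.8 and 40.7 in WT and from 53.1 and 38.9 to 23.4 and 22.9 in NKO (interaction -2.30 ± 0.50, adjusted p = 1.44e-02). At Spred2, which encodes a brake on Ras and ERK signalling, it went from 25.8 and 42.8 to 61.6 and 71.0 in WT and from 67.1 and 54.0 to 37.7 and 29.9 in NKO (interaction -1.76 ± 0.39, adjusted p = 1.60e-02). In all 3 the level at rest was higher in NKO than in WT, the direction of 80.3% of the distal CpG islands and 74.8% of all regions with library totals. The fourth region was at Pim1, named after its values were seen (-1.15). None of these interactions passed under TMM. Mir155hg, which rose in each genotype, went from 7.57 and 5.60 to 136 and 135 in WT (4.37 ± 0.30, adjusted p = 1.70e-15) and from 7.37 and 10.4 to 91.9 and 105 in NKO (3.43 ± 0.30, adjusted p = 7.51e-12).

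Loss of PGC1β was tested in the same way. With Veh, 0 distal CpG islands were higher and 1 lower in Cre, of 299 (0.397% of all regions in either direction), and at an unadjusted p under 0.05, 1 was higher and 153 lower, against 304 and 6943 of the 25197 regions tested in all and 0 and 258 of 439 CpG islands within 2000 bp of a TSS. The median was -0.31, against -0.13 elsewhere, and the difference over library pairs was -0.19 to -0.16. The share of tags in regions was also lower in Cre than in flox, with Veh and with KLA, and its part was not tested. With KLA, 5 were higher and 11 lower (all regions 0.702% and 6.81%), and TMM gave 8 and 1 (1.9% and 1.08%). The responses to KLA differed between genotypes at 4 regions upwards and 3 downwards (5.37% of all regions in either direction), and at 8 and 1 under TMM (3.71%). The medians of the interaction were -0.03 and -0.28.

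The Klf9 window fell from 198 and 163 to 37.4 and 37.2 in flox and from 155 and 142 to 92.5 and 95.1 in Cre (interaction 1.62 ± 0.24, adjusted p = 2.38e-09). The window chr5:135488711-135489711 at Hip1, a clathrin adaptor gene, went the other way, from 213 and 218 to 88.2 and 109 in flox and from 228 and 216 to 24.6 and 22.8 in Cre (interaction -2.09 ± 0.25, adjusted p = 6.46e-15). At Tacc2, a centrosomal protein gene, it fell from 237 and 229 to 31.2 and 22.3 in flox and from 223 and 206 to 47.0 and 61.9 in Cre (interaction 1.15 ± 0.26, adjusted p = 1.56e-04). In all 3 the libraries with KLA did not overlap between genotypes, and with Veh those of Hip1 overlapped while flox was the higher at Klf9 and Tacc2. The other 4 regions with an interaction were Mir17, Rapgef5, Aacs and Pcgf5, the last named after its values were seen. Socs3, singled out in the same way, rose from 14.6 and 11.1 to 152 and 161 in flox and from 9.98 and 5.97 to 72.2 and 78.8 in Cre, and with KLA it was lower in Cre (-1.05).

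In the bone marrow cell cultures with RANKL, distal CpG islands fell in rank for p300. The median percentile was 68.4 and 76.8 on day 0 and 33.6 and 38.5 on day 4. Of 105 regions, 25 rose and 0 fell (all regions 62.2% and 0.248%), with medians of 1.02 and 2.06 and a difference of -1.43 to -0.89. TMM gave 0 and 9 (8.8% and 3.83%). The share of tags in regions was 3.08% and 3.16% on day 0 and 9.61% and 9.53% on day 4, and its part in the rise was not tested. Scd2, a fatty acid desaturase gene, had 5 and 1 tags on day 0 and 49 and 44 on day 4, and Anp32a had 1 and 0 and then 28 and 14. For ERK1, 3 of 80 rose and 0 fell (2.35% of all regions in either direction), with medians of 1.02 and 1.02, and 0 were called under TMM by edgeR or without either day 4 library. Jarid2, a Polycomb accessory gene and among the 3, had 0 and 0 tags and then 17 and 8. The ERK1 percentiles, 57 and 43.2 on day 0 and 51.8 and 36.5 on day 4, overlapped.

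By nearest gene, an inflammatory response list held 2 to 9 distal CpG islands of a table. With KLA, 6 of 9 rose and 0 fell for p300 (median 1.21, where 42.1% of all regions rose), and 5 of 9 rose and 0 fell for PGC1β with DMSO (1.33, where 16.4% rose). For p65, 3 of 6 rose and 0 fell (1.62), near the 57% of all regions. For HDAC3 2 of 9 rose (median 0.53, background 27.5%), for NCoR 2 of 7 (0.12, 23.4%), for ERK1 2 of 5 (0.21, 10.3%), for Fosl2 1 of 5 (-0.57, 11.4%), for PU.1 1 of 2 (0.49, 4.53%) and for PGC1β without DMSO 0 of 2 (-0.04, 16.4%), and 0 fell in each. For H3K27ac with KLA, 2 of 7 rose and 1 fell with DMSO (median -0.10, all regions 6.73% and 28.1%). In WT 3 of 7 rose and 0 fell (0.25, 6.49% and 3.72%), and in NKO 2 of 7 rose and 0 fell (-0.32, 2.75% and 7.96%). In flox 2 of 7 rose and 1 fell (-0.19, 5.22% and 25.6%), as did 2 and 1 of 7 in Cre (-0.37, 4.18% and 32.5%). The medians of the class were -0.32 for p300, -0.16 for p65 and 0.25 for PGC1β with DMSO. Lists of developmental regulators (1 to 13 regions) and zinc finger genes (1 to 16) held the other named changes, Foxk1, whose H3K27ac fell with KLA in Cre (-1.43 ± 0.15, adjusted p = 1.77e-20), and Zfp395. Lists of imprinted genes and clustered protocadherins held 0.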

How the data were processed

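ChIP-seq of H3K27ac and of 8 factors had been carried out in 100 samples, of which 70 ChIP libraries had columns in the 15 tables, and 30 inputs were not used here. Factor chromatin was fixed with disuccinimidyl glutarate and formaldehyde, and H3K27ac chromatin with formaldehyde alone. The labels and methods state that the authors aligned reads to mm10 with Bowtie2, called factor peaks with HOMER, kept those reproducible between replicates, merged them over conditions and deposited raw tag counts for each region and library. H3K27ac was counted over open chromatin, in 1000 bp windows in the RGFP966 and Pgc1b tables. The upstream versions are not given in the sources used here. Merged peaks were called on groups that are then compared. The windows of most tables differ, so levels were compared within a table only. The RGFP966 and Pgc1b tables held equal numbers of windows in each class, with equal summaries of their sequence and position. Their 347 distal CpG islands are thus probably the same windows, entered once for each table among the 3564 entries.

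Groups were taken from the labels, which name biological replicates. No pair of libraries agreed within sampling noise. Counts were tested with edgeR 4.0.16 (R 4.3.3, limma 3.58.1; two-sided quasi-likelihood test, library totals from the file headers, regions with at least 4 tags in 1 library, or 16 for H3K27ac), over all regions of a table, with Benjamini-Hochberg adjustment. A call needed an adjusted p under 0.05 and more than 2-fold. The test was checked on simulated counts. Scaling with TMM or DESeq2 1.42.0 size factors, DESeq2's Wald test, no filter, no fold limit, a replicate block, other distances and leaving out each library were alternatives. Sequence and starts came from GRCm38.p6 with GENCODE and RefSeq annotation (pysam 0.24.0, samtools 1.23.1), and 92% to 94% of the listed distances were recovered within 100 bp. Percentiles of region levels and medians by library were computed in Python 3.11.15 (pandas 2.3.3, numpy 2.4.6) and drawn with matplotlib 3.10.9.

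The distal CpG islands, gene lists and tests were chosen with earlier results of these data known. Regions were named by rule: in each comparison the 3 called ones of lowest p in each direction, the 3 strongest of each table, the 5 loci in most tables, those nearest the 2000 bp limit, and for each gene list the one of lowest p. Intervals of ratios cover counting error only. Some regions and sequences that this rule names are not reported here.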

Additional observations from a re-analysis of the deposited data

Results flagged for a closer look

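The H3K27ac response to KLA differed between genotypes, by the interaction term of edgeR's quasi-likelihood test, at 4 of 300 distal CpG islands for NCoR (0.697% of all regions) and at 7 of 299 for PGC1β (5.37% of all regions). The NCoR count was 0 under TMM and 0 to 7 with 1 library left out. For NCoR the named regions were Kdm6b (-1.31 on the log2 scale), Jun (-2.30) and Spred2 (-1.76), with 2 libraries in each of 4 groups. NKO was above WT with Veh at each, as it was at 80.3% of the distal CpG islands and 74.8% of all regions with library totals. For PGC1β they were Hip1 (-2.09), Klf9 (1.62) and Tacc2 (1.15), where the KLA libraries of the genotypes did not overlap.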

How the results depend on the processing

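The counts of called distal CpG islands depended on scaling, the fold limit and single libraries. The difference between the classes can hardly change with scaling, which moves all regions together. The cause was not tested where none is named. With TMM, counts moved by over 1.5 times for p65 with KLA (78 to 163), Fosl2 (6 to 17), PU.1 (51 to 25), PGC1β with DMSO (20 to 13), NCoR with ERKi (97 to 12), p300 on day 4 (25 to 9), ERK1 on day 4 (3 to 0) and, for H3K27ac, KLA in Cre (79 to 49), Cre against flox with Veh (1 to 0) and KLA (16 to 9), NKO against WT with Veh (9 to 1) and KLA (3 to 5) and the NCoR interaction (4 to 0). With DESeq2 size factors these were, in the same order, 160, 23, 26, 13, 12, 8, 0, 50, 0, 9, 1, 5 and 0. DESeq2's Wald test moved p65 to 160, Fosl2 to 24, PU.1 to 25, NCoR with ERKi to 23, p300 on day 4 to 1, ERK1 on day 4 to 0, PGC1β with ERKi from 0 to 1, KLA in Cre to 50, Cre against flox to 0 with Veh and 5 with KLA, NKO against WT with Veh to 1 and the NCoR interaction to 0. Without the filter, NKO against WT with KLA was 5. Without the fold limit, H3K27ac counts were 53 (KLA in WT), 47 (KLA in NKO), 6 (NKO against WT with KLA), 134 (KLA with DMSO), 133 (RGFP966), 180 (KLA in flox), 181 (KLA in Cre), 86 and 131 (Cre against flox with Veh and KLA) and 38 (Pgc1b interaction), and 133 for PU.1.

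Replicate numbers did not pair the libraries: over 31 pairs of groups the correlation of deviations was -0.027 to 0.026. With the replicate number as a block, counts moved for ERK1 with KLA (7 to 3), Fosl2 (6 to 1), ERK1 on day 4 (3 to 1) and p300 on day 4 (25 to 15), and by 1.5 times or less elsewhere.

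Leaving out 1 library, which leaves the lone sample assumed to vary like the other groups, gave 26 to 82 calls for NCoR with KLA, 9 to 70 for HDAC3, 4 to 54 for PGC1β, 52 to 91 for p300, 3 to 8 for ERK1, 29 to 94 for p65, 0 to 51 for Fosl2, 47 to 54 for PU.1, 10 to 17 for PGC1β with DMSO, 0 to 0 for PGC1β with ERKi, 42 to 94 for NCoR with ERKi, 0 to 5 for ERK1 and 1 to 53 for p300 on day 4. For H3K27ac it gave 16 to 29 (KLA in WT), 18 to 22 (KLA in NKO), 1 to 6 and 0 to 1 (NKO against WT with Veh and KLA), 0 to 7 (NCoR interaction), 67 to 85 (KLA with DMSO), 48 to 65 (RGFP966), 71 to 81 and 76 to 81 (KLA in flox and Cre), 1 to 3 and 13 to 17 (Cre against flox with Veh and KLA) and 4 to 8 (Pgc1b interaction). Counts fell most without a KLA library for NCoR (26 without replicate 1, 27 without replicate 2), p65 (33, 29), p300 (52, 55), ERK1 (4, 3) and NCoR with ERKi (42, 60). They fell without a Veh library for HDAC3 (9, 9), PGC1β (5, 4), Fosl2 (0, 0) and PGC1β with DMSO (10, 13; 11 without its KLA replicate 1), without a day 4 library for ERK1 (0, 0) and p300 (2, 1), and without Veh replicate 1 for KLA in WT (16). They rose without a KLA library for PGC1β (45, 54) and Fosl2 (20, 51), without a day 0 library for p300 (38, 53), without day 0 replicate 1 for ERK1 (5) and without a flox Veh library for Cre against flox with Veh (2, 3). NKO against WT with Veh gave 1 without NKO Veh replicate 1 and 2 and 1 without a WT Veh library, and with KLA it gave 1 and 0 without a WT or NKO library. The NCoR interaction gave 1 and 7 without an NKO Veh library, 1 and 0 without a WT Veh library, 2 without NKO KLA replicate 2 and 1 without WT KLA replicate 2, and the Pgc1b interaction 4 without flox Veh replicate 1.

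The RGFP966 difference between the classes, -0.99, was -1.0 with TMM or DESeq2 size factors, which cannot test it, and -1.0 with the block. It was -1.03 to -0.94 without 1 library (the farthest without 1 DMSO and KLA replicate), and -1.01 and -1.0 beyond 1000 and 5000 bp. The difference shrank to -0.74 without the filter and to -0.71 without regions near a GENCODE start, the latter an alternative chosen after seeing the data. Of 62 calls at named regions, none reversed, and 53 held with TMM and with DESeq2 size factors, 51 with DESeq2's test, 62 without the filter and 59 with the block. TMM lost those of Kdm6b and Jun (NKO against WT), Kdm6b, Jun and Spred2 (NCoR interaction), Elovl5, Scd2, Anp32a and Jarid2. Of 272 calls with 1 library left out, 36 were lost. Depth limits single peaks of few tags, such as Jarid2 for ERK1, where 0 and 0 tags were counted on day 0.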
